A study of Homo sapiens with 6 samples.

Results

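The cathepsins and legumain are the proteases that do most of the protein breakdown inside the lysosome, and 10 of their genes were followed here in HepG2 cells after knockdown of FTO. The 10 genes, CTSA, CTSB, CTSC, CTSD, CTSH, CTSK, CTSL, CTSS, CTSZ and LGMN, were chosen by symbol from an earlier look at these same counts in which this contrast was known. All 10 were found among the 60483 gene identifiers, and all 10 were among the 15025 genes that passed the filter on low counts. Because FTO siRNA against control siRNA was the contrast behind the choice, the levels and fold changes of the 10 genes are a description. Which of them passed the threshold of the fit over all genes is stated in the same sense, as a count set beside the share of all genes, and nothing rests on it.

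The study measured RNA in 3 libraries of FTO siRNA cells and 3 libraries of control siRNA cells. HepG2 is an established human line grown from a hepatocellular carcinoma, and FTO is an RNA demethylase that removes methyl groups from adenosine. Both groups were the same line at passages 16 to 19, in RPMI-1640 with serum, and differed in the labels only by the siRNA. The labels do not state the siRNA sequence, its dose, the hours between transfection and harvest, or whether replicates were separate cultures, so the spread between libraries may be technical.

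Cathepsins are made as inactive precursors, carried to the lysosome largely by mannose 6-phosphate receptors, and cut to their active form in its acid interior. Most are cysteine proteases of the papain family, CTSD is an aspartic protease and CTSA is a serine carboxypeptidase. Legumain cuts after asparagine and helps to process several cathepsins. Cystatins hold the cysteine cathepsins in check, and many lysosomal genes carry a CLEAR element, a DNA word with CACGTG at its core that the factors TFEB and TFE3 can bind. Cathepsins B, D, L, Z and A are widespread among tissues, whereas CTSS is best known from antigen-presenting cells and CTSK from osteoclasts.

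Total counts were 16957438, 16407912 and 18390953 in FTO siRNA libraries 1 to 3, and 15713279, 16488082 and 16739978 in control siRNA libraries 1 to 3. A count of 3 was equal to between 0.163 and 0.191 CPM at these depths, CPM being counts scaled to a common library size. FTO itself was at 11.2, 14.45 and 5.21 CPM in the FTO siRNA libraries, against 40.8, 37.96 and 38.8 CPM in the control siRNA libraries. Its mean of 10.3 ± 4.69 CPM was 26.3% of the 39.2 ± 1.47 CPM in control siRNA cells (SD, n = 3 each), a log2 fold change of -1.93 ± 0.32 (SE; edgeR adjusted p = 0.00932). FTO siRNA library 3 stood apart from its group: the chi-square per degree of freedom of its counts was 119 against FTO siRNA library 1 and 82.6 against library 2, while libraries 1 and 2 gave 20.4 and the control pairs 8.45 to 15.4. Results that rest on library 3 are given with and without it.

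Of the 10 genes, 8 were higher in every FTO siRNA library than in every control siRNA library, CTSC was lower in every one, and CTSK overlapped between the groups. The edgeR fit over all 15025 genes called 5 of the 10 higher, namely CTSS, CTSL, CTSH, LGMN and CTSB, and 0 lower. The same fit called 11.4% of all tested genes, 7.53% higher and 3.83% lower. Separation without overlap was found for 19.2% of all tested genes with FTO siRNA higher and for 17.4% with FTO siRNA lower. Since the genes were picked with this contrast in view, nothing is read from their counts against these shares. The median log2 fold change was 0.60 over the 10 genes and 0.04 over all genes tested. At an unadjusted p under 0.05, 1 of the 10 was lower (CTSC), and DESeq2 and limma-voom called 0 lower at the adjusted threshold.

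**Figure D1:**
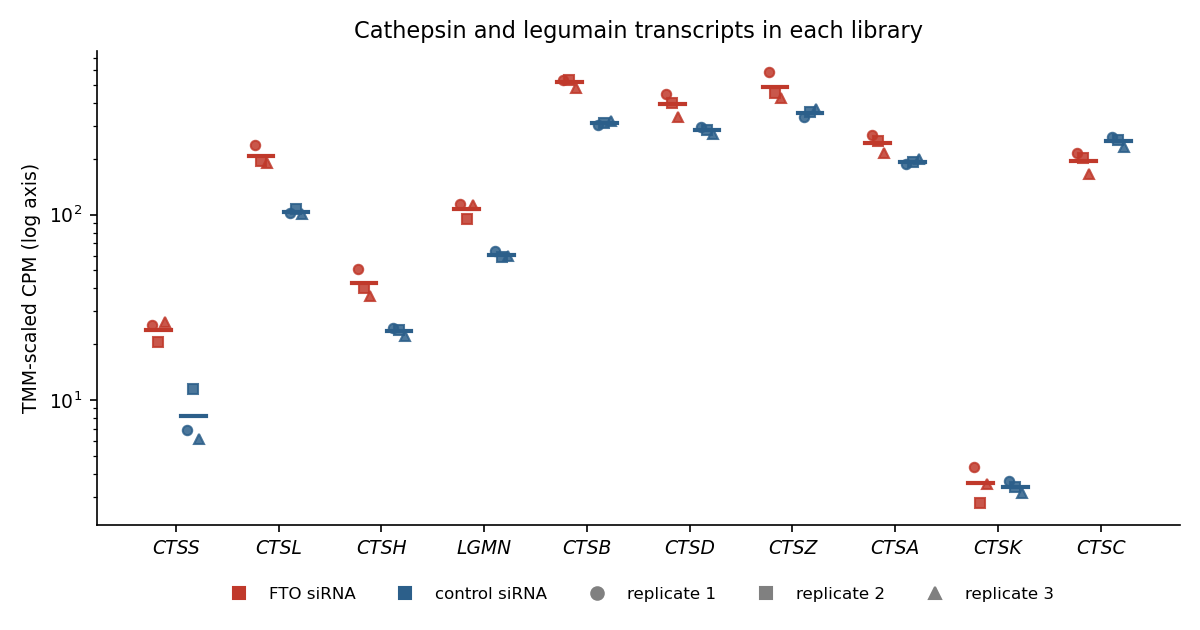
CPM of the 10 genes in each library on a log axis, with FTO siRNA libraries left (red) and control siRNA libraries right (blue) for each gene; marker shapes give the replicate number and the bar is the mean of 3 libraries. The 2 sets of points do not touch for 9 of the 10 genes, with CTSC the 1 gene whose FTO siRNA points lie below.

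The papain-type endopeptidases, which cut inside protein chains, included the 2 highest fold changes of the 10 genes, those of CTSS and CTSL. CTSS (ENSG00000163131.9, chromosome 1), a protease that trims the invariant chain of class II molecules and keeps its activity outside the acid lysosome, had 25.3, 20.45 and 26.2 CPM in FTO siRNA libraries 1 to 3, against 6.91, 11.4 and 6.16 CPM in control siRNA libraries 1 to 3. The lowest FTO siRNA library was well above the highest control library. Mean levels were 23.98 ± 3.10 CPM in FTO siRNA cells and 8.15 ± 2.83 CPM in control siRNA cells (SD, n = 3 each), and the log2 fold change was 1.56 ± 0.25 (SE).

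CTSL (ENSG00000135047.13, chromosome 9), a broad lysosomal endopeptidase, had 238, 195 and 189 CPM in the FTO siRNA libraries, against 102, 107 and 100.3 CPM in the control siRNA libraries. The control libraries lay close together and every FTO siRNA library was far above them. Its means were 207 ± 26.6 CPM in FTO siRNA cells and 103 ± 3.43 CPM in control siRNA cells (SD, n = 3 each), with a log2 fold change of 1.01 ± 0.15 (SE). The 7 annotated CTSL pseudogenes held 2, 17 and 14 counts in the FTO siRNA libraries, against 33, 22 and 20 counts in the control siRNA libraries. CTSL itself had 3835, 3150 and 3702 counts in the FTO siRNA libraries, against 1612, 1755 and 1661 counts in the control siRNA libraries. Adding the pseudogenes gave a log2 fold change of 0.99.

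CTSB (ENSG00000164733.19, chromosome 8), which works both as an endopeptidase and by clipping dipeptides from the carboxyl end, had 534, 530.4 and 483 CPM in the FTO siRNA libraries, against 303, 311 and 319 CPM in the control siRNA libraries. All FTO siRNA libraries were above all controls, and library 3 was the lowest of its group. The means were 516 ± 28.4 CPM in FTO siRNA cells and 311 ± 8.15 CPM in control siRNA cells (SD, n = 3 each), and the log2 fold change was 0.73 ± 0.14 (SE). CTSK (ENSG00000143387.11, chromosome 1), the collagen-cutting protease of osteoclasts, was near the bottom of the measured range. It had 70, 45 and 69 counts in the FTO siRNA libraries, against 58, 56 and 52 counts in the control siRNA libraries. In CPM this was 4.34, 2.78 and 3.53 in the FTO siRNA libraries, against 3.675, 3.41 and 3.14 in the control siRNA libraries. The groups overlapped, and the log2 fold change of 0.06 ± 0.25 (SE) was smaller than its error; it was -0.12 without FTO siRNA library 1 and -0.02 without control siRNA library 3.

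Legumain (LGMN, ENSG00000100600.13, chromosome 14), the asparagine-specific endopeptidase, had 115, 94.1 and 113 CPM in the FTO siRNA libraries, against 63.6, 58.9 and 59.5 CPM in the control siRNA libraries. Every FTO siRNA library was above every control, and library 2 was the lowest of its group. Means were 107 ± 11.3 CPM in FTO siRNA cells and 60.7 ± 2.55 CPM in control siRNA cells (SD, n = 3 each), and the log2 fold change was 0.82 ± 0.14 (SE).

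The 3 exopeptidases of the papain family, which trim chain ends, differed in direction. CTSH (ENSG00000103811.14, chromosome 15), mainly an aminopeptidase, had 51.1, 39.96 and 36.4 CPM in the FTO siRNA libraries, against 24.3, 23.7 and 22.2 CPM in the control siRNA libraries. CTSZ (ENSG00000101160.12, chromosome 20), a carboxypeptidase also called cathepsin X, had 585, 454.5 and 424.5 CPM in the FTO siRNA libraries, against 335, 358 and 372 CPM in the control siRNA libraries. For both genes the FTO siRNA libraries were all higher, with library 1 the highest. The means of CTSH were 42.5 ± 7.64 CPM in FTO siRNA cells and 23.4 ± 1.08 CPM in control siRNA cells, with a log2 fold change of 0.86 ± 0.17 (SE). Those of CTSZ were 488 ± 85.3 CPM in FTO siRNA cells and 355 ± 18.9 CPM in control siRNA cells (SD, n = 3 each), with a log2 fold change of 0.46 ± 0.17 (SE), which did not pass the threshold.

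CTSC (ENSG00000109861.14, chromosome 11), the dipeptidyl peptidase that activates the granule serine proteases of immune cells, went the other way. It had 214, 201 and 165 CPM in the FTO siRNA libraries, against 262, 251 and 232 CPM in the control siRNA libraries. The highest FTO siRNA library was below the lowest control library. Means were 193 ± 25.5 CPM in FTO siRNA cells and 248 ± 15.6 CPM in control siRNA cells (SD, n = 3 each), and the log2 fold change of -0.36 ± 0.15 (SE) did not pass the threshold.

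The 2 lysosomal proteases outside the cysteine class were higher in all FTO siRNA libraries by less. CTSD (ENSG00000117984.11, chromosome 11), the main aspartic protease of the lysosome, had 448, 398 and 336 CPM in the FTO siRNA libraries, against 298, 287 and 270.5 CPM in the control siRNA libraries. CTSA (ENSG00000064601.15, chromosome 20), a serine carboxypeptidase that also shields beta-galactosidase and neuraminidase, had 268, 248 and 213.5 CPM in the FTO siRNA libraries, against 187, 191 and 199 CPM in the control siRNA libraries. In both genes FTO siRNA library 3 was the lowest of its group and nearest to the controls. The log2 fold changes were 0.47 ± 0.16 for CTSD and 0.34 ± 0.14 for CTSA (SE), and neither passed the threshold. CTSA shares its locus with PLTP, which had 36.2 ± 1.98 CPM in FTO siRNA cells and 18.2 ± 3.21 CPM in control siRNA cells (SD, n = 3 each), and whether counting used strand is not given in the sources used here.

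**Figure D2:**
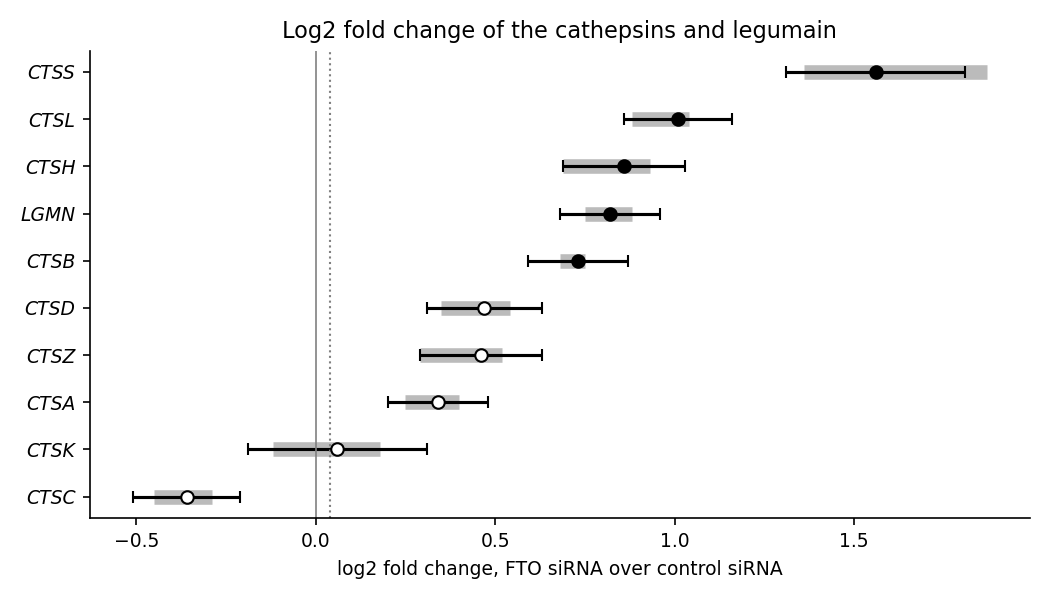
Log2 fold change of FTO siRNA over control siRNA for each of the 10 genes, with its standard error; filled points passed the adjusted threshold of 0.05, the grey bar is the range over 6 fits that each left out 1 library, and the dotted line is the median of all genes tested, 0.04. CTSS lies highest at 1.56, CTSK at 0.06 and CTSC lowest at -0.36.

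The calls depended on which libraries were in the fit, the fold changes much less. Without control siRNA library 1, 0 of the 10 genes were called higher by edgeR, where 1.51% of all genes were, and 5 of the 10 had an unadjusted p under 0.05. Without control siRNA library 2, CTSL and CTSS were called higher, where 1.84% of all genes were. Those 2 genes were also the calls without control siRNA library 3, where 3.23% of all genes were called higher. The count was 5 without FTO siRNA library 1, where 4.86% of all genes were called higher, and 5 without FTO siRNA library 2, where 5.69% were. Leaving out FTO siRNA library 3 gave 8 calls, adding CTSA, CTSD and CTSZ, where 15.9% of all genes were called higher.

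The spread of log2 fold changes over these 6 fits was 1.36 to 1.87 for CTSS, 0.88 to 1.04 for CTSL, 0.69 to 0.93 for CTSH, 0.75 to 0.88 for LGMN and 0.68 to 0.75 for CTSB. It was 0.35 to 0.54 for CTSD, 0.29 to 0.52 for CTSZ, 0.25 to 0.40 for CTSA and -0.45 to -0.29 for CTSC. Every gene but CTSK thus kept its direction in all 6 fits, which follows from groups that did not overlap and adds nothing to it. Relative to the mean of FTO siRNA libraries 1 and 2, library 3 was higher for CTSS (1.15 times) and LGMN (1.08 times), about level for CTSK (0.99 times), and lower for the other 7 genes, between 0.79 times for CTSC and CTSD and 0.91 times for CTSB. Without library 3 the log2 fold changes were 1.46 ± 0.24 for CTSS, 1.04 ± 0.11 for CTSL and -0.29 ± 0.11 for CTSC (SE).

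Together the 10 genes took a larger part of the RNA counted after FTO siRNA. They held 0.236, 0.2155 and 0.212% of all counts in the FTO siRNA libraries, against 0.159, 0.1595 and 0.157% in the control siRNA libraries. Their summed level was 2482, 2184 and 1990 CPM in the FTO siRNA libraries, against 1585, 1602 and 1584 CPM in the control siRNA libraries. The control sums were nearly equal, and the lowest FTO siRNA sum was above all of them. The mean was 2218 ± 248 CPM in FTO siRNA cells and 1590 ± 10.1 CPM in control siRNA cells (SD, n = 3 each), a ratio of 1.39. Within bulk RNA, more RNA per cell and more cells of a kind that expresses a gene cannot be told apart, and the same holds for lower levels.

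Within that sum the mixture also differed. CTSC made up 8.71 ± 0.472% of the counts of the 10 genes in FTO siRNA cells and 15.6 ± 0.966% in control siRNA cells (SD, n = 3 each). CTSL made up 9.33 ± 0.367% in FTO siRNA cells and 6.48 ± 0.175% in control siRNA cells, and CTSB 23.4 ± 1.60% in FTO siRNA cells and 19.5 ± 0.537% in control siRNA cells. Groups did not overlap for these 3 genes. The share of CTSS was 1.09 ± 0.200% in FTO siRNA cells and 0.512 ± 0.174% in control siRNA cells, and that of LGMN 4.87 ± 0.713% in FTO siRNA cells and 3.82 ± 0.175% in control siRNA cells. CTSH made up 1.91 ± 0.131% in FTO siRNA cells and 1.47 ± 0.0663% in control siRNA cells. For CTSS, LGMN and CTSH too the groups did not overlap. CTSA and CTSK held smaller shares in FTO siRNA cells, also without overlap: CTSA 10.97 ± 0.343% in FTO siRNA cells and 12.1 ± 0.426% in control siRNA cells, and CTSK 0.16 ± 0.0282% in FTO siRNA cells and 0.214 ± 0.0169% in control siRNA cells. CTSZ held 21.9 ± 1.47% in FTO siRNA cells and 22.3 ± 1.19% in control siRNA cells, and CTSD 17.7 ± 0.726% in FTO siRNA cells and 17.9 ± 0.859% in control siRNA cells, with overlapping libraries.

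**Figure D3:**
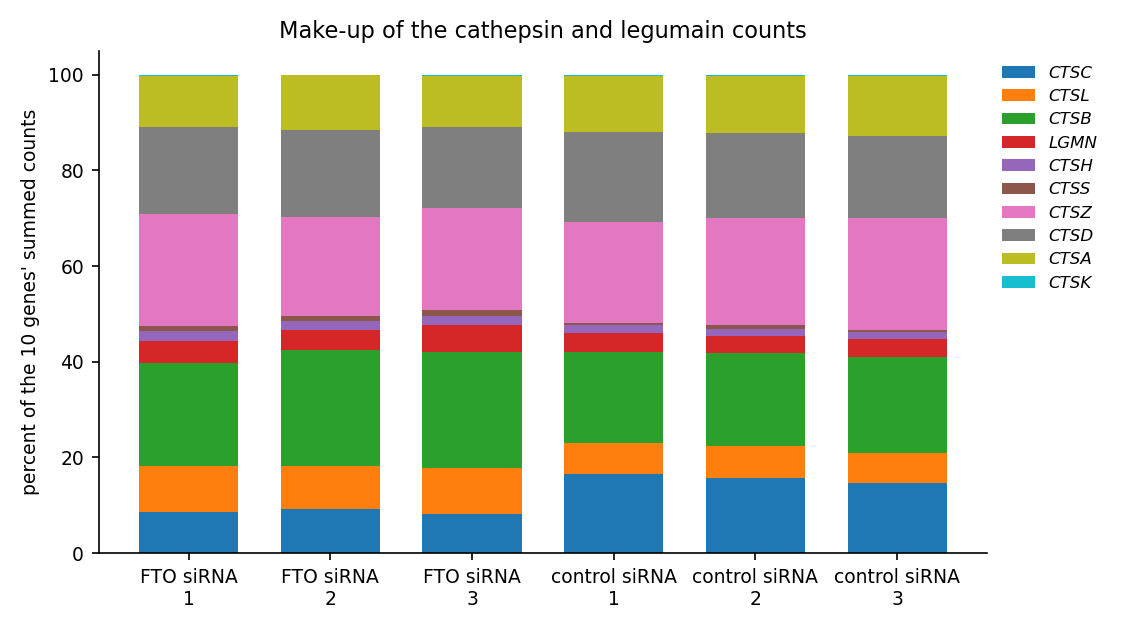
Percent of the summed counts of the 10 genes held by each gene, stacked to 100 for each library, FTO siRNA libraries left of control siRNA libraries. The CTSC band is narrower in all FTO siRNA libraries (8.29 to 9.22%) than in the control siRNA libraries (14.6 to 16.6%), and the CTSK band, under 0.24% everywhere, is too thin to see.

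Levels of different genes were compared as CPM per kilobase of the longest annotated transcript. In FTO siRNA cells CTSZ was highest at 326 ± 57.1 CPM per kilobase, followed by CTSD at 185 ± 26.4, CTSB at 133 ± 7.32, CTSL at 95.1 ± 12.2, CTSA at 79.6 ± 9.06 and LGMN at 50.7 ± 5.36 (SD, n = 3 each). CTSC came next at 31.6 ± 4.16 CPM per kilobase, then CTSH at 19.4 ± 3.49, CTSS at 5.84 ± 0.754 and CTSK at 2.097 ± 0.461. The libraries of CTSL and CTSA overlapped, and no other neighbours in this order did.

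In control siRNA cells the order began in the same way, with CTSZ at 237.5 ± 12.6 CPM per kilobase, CTSD at 134 ± 6.50 and CTSB at 80.2 ± 2.10. It then ran CTSA at 62.96 ± 2.09, CTSL at 47.4 ± 1.575, CTSC at 40.55 ± 2.54, LGMN at 28.7 ± 1.21 and CTSH at 10.7 ± 0.495 CPM per kilobase. CTSK at 2.015 ± 0.158 and CTSS at 1.985 ± 0.689 CPM per kilobase closed the order and overlapped, and no other neighbours did. CTSL was thus above CTSA and LGMN above CTSC in FTO siRNA cells by their means, and below them in control siRNA cells. The order depends on the length used: with the union of annotated exons 5 genes changed rank in control siRNA cells, CTSL passing CTSB and CTSA, and CTSS passing CTSK.

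**Figure D4:**
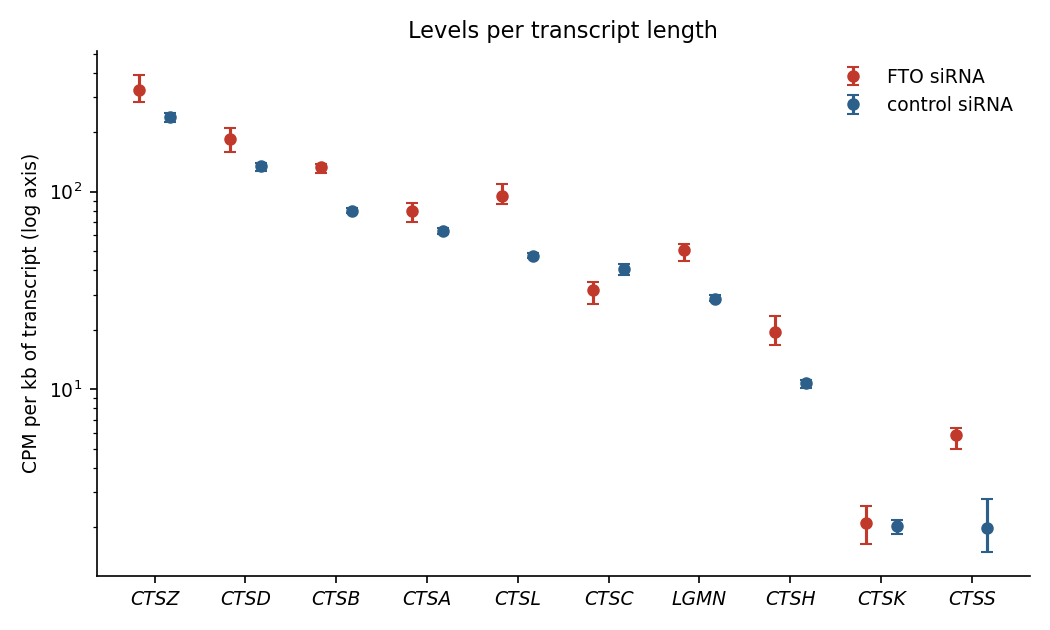
Mean level of each gene per kilobase of its longest transcript on a log axis, FTO siRNA (red) left of control siRNA (blue), ordered by the control level; bars run from the lowest to the highest of 3 libraries. Levels span from about 2 CPM per kilobase for CTSK to 326 for CTSZ in FTO siRNA cells, and from 1.985 for CTSS to 237.5 for CTSZ in control siRNA cells.

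Promoter windows of 300 bases were at hand for 6 of the 10 genes, CTSA, CTSC, CTSD, CTSH, CTSL and CTSZ, from RefSeq on GRCh38.p14. CACGTG, the core of the CLEAR element and its own reverse complement, occurred in 2 of the 6. The windows of these 2, the lysosomal proteases outside the cysteine class, are shown first, on chr20:45891085-45891384 (plus strand) and chr11:1763878-1764177 (minus strand), each with CACGTG in capitals.
CTSA: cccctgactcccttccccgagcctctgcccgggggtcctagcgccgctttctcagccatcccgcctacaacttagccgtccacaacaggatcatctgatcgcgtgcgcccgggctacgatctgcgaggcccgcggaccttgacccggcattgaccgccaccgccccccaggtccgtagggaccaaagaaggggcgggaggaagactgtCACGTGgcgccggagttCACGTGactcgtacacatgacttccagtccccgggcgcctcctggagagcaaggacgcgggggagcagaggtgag
CTSD: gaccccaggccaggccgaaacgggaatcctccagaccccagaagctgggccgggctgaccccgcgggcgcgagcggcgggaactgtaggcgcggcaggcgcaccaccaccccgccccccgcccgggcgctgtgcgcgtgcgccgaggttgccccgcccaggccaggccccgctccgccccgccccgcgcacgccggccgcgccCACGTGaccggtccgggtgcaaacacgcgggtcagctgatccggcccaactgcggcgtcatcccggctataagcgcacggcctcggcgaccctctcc
CTSA holds the word at 42 and 25 bases before the start site and CTSD at 47 bases before it.

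The windows of CTSL, with the second highest fold change, and CTSC, the gene that was lower, hold no CACGTG and each a CCAAT word, shown in capitals, on chr9:87725869-87726168 (plus strand) and chr11:88337687-88337986 (minus strand).
CTSL: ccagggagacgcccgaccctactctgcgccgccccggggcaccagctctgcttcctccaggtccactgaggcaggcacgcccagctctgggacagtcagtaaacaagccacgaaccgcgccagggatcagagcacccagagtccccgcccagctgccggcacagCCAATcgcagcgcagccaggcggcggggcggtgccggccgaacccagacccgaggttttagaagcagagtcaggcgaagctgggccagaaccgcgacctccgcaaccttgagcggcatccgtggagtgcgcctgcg
CTSC: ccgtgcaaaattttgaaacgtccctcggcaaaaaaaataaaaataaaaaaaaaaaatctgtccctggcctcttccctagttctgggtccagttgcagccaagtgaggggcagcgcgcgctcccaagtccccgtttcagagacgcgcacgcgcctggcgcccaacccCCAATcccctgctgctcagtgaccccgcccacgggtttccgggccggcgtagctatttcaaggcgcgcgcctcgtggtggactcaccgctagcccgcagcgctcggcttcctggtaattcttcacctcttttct
The CCAAT word lies 86 bases before the start site in CTSL and 84 bases before it in CTSC. GGGCGG or its reverse complement occurred in all 6 windows.

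Read on both strands, CACGTG was in 2548 of the 35116 windows supplied, which is 7.26%, and in 22 of the 101 windows of other lysosomal genes, which is 21.8%. The 101 windows belong to 69 genes, with inhibitors and regulators left out, and can overlap. The 22 belong to 22 different genes. The longer word GTCACGTG, which overlaps CACGTG, was in 2.4% of all windows, in 17 of the 101 lysosomal windows and in both CTSA and CTSD. CCAAT was in 34.6% and GGGCGG in 45% of all windows. These matches describe letters in the windows, not binding. The log2 fold changes were 0.34 and 0.47 for CTSA and CTSD, which hold CACGTG, and 1.01, 0.86, 0.46 and -0.36 for CTSL, CTSH, CTSZ and CTSC, whose windows do not.

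Outside the 10 genes, 121 other lysosomal genes, inhibitors and regulators were listed, of which 109 were tested. edgeR called 11 of them higher, which is 10.1% beside 7.53% of all genes, and 3 lower, which is 2.75% beside 3.83% of all genes. The 11 include CST7, which passed the filter on low counts only through the FTO siRNA libraries. A positive log2 fold change was found for 83 of the 109, which is 76.1% beside 53.5% of all genes. Without FTO siRNA library 3, edgeR called 40 of the 109 higher and 8 lower, where 15.9% of all genes were called higher and 14.1% lower. Only CSTA and DNASE2 of the 11, and 0 of the 3, kept their call in all 6 fits that left out 1 library. The other cathepsins held 0 calls among 4 tested genes by edgeR, DESeq2 and limma-voom alike, with a median log2 fold change of 0.58. At an unadjusted p under 0.05, 2 were higher in edgeR and 0 in limma-voom. Without FTO siRNA library 3 that edgeR count was 0 as well. CTSV, the closest relative of CTSL, had 73.6 ± 12.5 CPM in FTO siRNA cells and 71.5 ± 0.981 CPM in control siRNA cells (SD, n = 3 each; edgeR adjusted p = 0.891). CTSE, an aspartic protease, had 37.4 ± 17.9 CPM in FTO siRNA cells and 23.2 ± 1.73 CPM in control siRNA cells (edgeR adjusted p = 0.172), with 1132 of its 2011 FTO siRNA counts in library 3.

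The natural inhibitors of cysteine cathepsins included CSTA and CST7, which had the 2 highest log2 fold changes among the called genes of the other lysosomal lists. CSTA, a cystatin that stays in the cytosol, rose to 6.52 ± 2.76 CPM in FTO siRNA cells, against 1.09 ± 0.341 CPM in control siRNA cells (SD, n = 3 each), a log2 fold change of 2.58 ± 0.40 (SE; edgeR adjusted p = 0.0079). CST7, a cystatin of the endosomal system, rose to 18, 14 and 21 counts in the FTO siRNA libraries, against 2, 3 and 3 counts in the control siRNA libraries (edgeR adjusted p = 0.00859, and up to 0.0677 without control siRNA library 1 or 2). CST7 passed the filter on low counts only through the FTO siRNA libraries. CST3, the secreted cystatin C, rose to 191 ± 59.0 CPM in FTO siRNA cells, against 106 ± 1.92 CPM in control siRNA cells, with a log2 fold change of 0.85 ± 0.21 (SE; edgeR adjusted p = 0.0377). That call was held in 1 of the 6 fits that left out a library, the one without FTO siRNA library 3, and the highest edgeR adjusted p was 0.153. Of the 14 inhibitors listed 6 could be tested, and edgeR called 3 higher and 0 lower. Without FTO siRNA library 3 these counts were 4 and 1. Over all genes 7.53% were called higher and 3.83% lower, and without that library 15.9% were called higher and 14.1% lower. Because CST7 was tested only through its FTO siRNA libraries, nothing is read from the 3 of 6.

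Among 34 other lysosomal hydrolases edgeR called 5 higher, which is 14.7% beside 7.53% of all genes. A positive log2 fold change was held by 32 of them, which is 94.1% beside 53.5% of all genes, with a median of 0.34. By edgeR, DESeq2 and limma-voom 0 of the 34 were called lower, and 0 were lower at an unadjusted p under 0.05 in edgeR. DNASE2, the acid endonuclease of the lysosome, rose to 25.9 ± 3.15 CPM in FTO siRNA cells, against 10.8 ± 0.717 CPM in control siRNA cells (SD, n = 3 each), a log2 fold change of 1.26 ± 0.17 (SE; edgeR adjusted p = 0.00456). SMPD1, acid sphingomyelinase, rose by 0.78 ± 0.15, ACP5, tartrate-resistant acid phosphatase, by 1.19 ± 0.23, and PPT1, which removes palmitate from proteins, by 0.68 ± 0.14 (log2, SE), with edgeR adjusted p of 0.0143, 0.0166 and 0.0191. The last of the 5, FUCA1, is named after its values were seen (log2 fold change 0.69 ± 0.17). SMPD1, ACP5, PPT1 and FUCA1 lost their calls whichever control siRNA library was left out, with highest edgeR adjusted p of 0.103, 0.11, 0.1135 and 0.183. All 7 tested other lysosomal proteases had a positive log2 fold change, with a median of 0.35, where 53.5% of all genes had a positive one. Of these, 4 were higher without overlap, where 19.2% of all genes were. Only DPP7, a dipeptidyl peptidase, was called higher, at 73.03 ± 4.41 CPM in FTO siRNA cells, against 49.04 ± 5.01 CPM in control siRNA cells (edgeR adjusted p = 0.0352). Without FTO siRNA library 3 it stayed called, and in the other 5 fits it did not (adjusted p up to 0.19 in edgeR). Without that library, 15 of the 34 hydrolases and 4 of the 7 proteases were called higher, where 15.9% of all genes were.

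Delivery and acidification genes had few calls in the fit of all 6 libraries and more without FTO siRNA library 3. The fit of all 6 libraries called 7.53% of all genes higher and 3.83% lower. Without library 3 these shares were 15.9% and 14.1%. Of 19 sorting genes 0 rose by edgeR, DESeq2 or limma-voom, with 1 higher at an unadjusted p under 0.05 in edgeR, and 1 fell by edgeR, with a median log2 fold change of -0.01. That gene was GNPTAB, part of the enzyme that adds the mannose 6-phosphate tag, at 59.4 ± 14.3 CPM in FTO siRNA cells and 96.7 ± 4.92 CPM in control siRNA cells (SD, n = 3 each; log2 fold change -0.70 ± 0.18, edgeR adjusted p = 0.0425). Among 15 proton pump subunits ATP6V1A fell, to 73.8 ± 9.20 CPM in FTO siRNA cells, against 114 ± 4.33 CPM in control siRNA cells (edgeR adjusted p = 0.0279), and 0 rose by edgeR or limma-voom, against 1 by DESeq2 and 2 at an unadjusted p under 0.05 in edgeR. Without FTO siRNA library 3, edgeR called 6 of the 15 pump subunits higher and 1 lower, 3 of the 19 sorting genes higher and 3 lower, and 4 of the 11 membrane proteins higher and 1 lower. In the 11 membrane proteins CD63, a tetraspanin, rose to 724 ± 173 CPM in FTO siRNA cells, against 429 ± 9.97 CPM in control siRNA cells (edgeR adjusted p = 0.0447). GNPTAB and ATP6V1A lost their calls without any 1 control siRNA library and without FTO siRNA library 1 (edgeR adjusted p up to 0.166 and 0.134). CD63 was called only when FTO siRNA library 3 was the one left out (edgeR adjusted p up to 0.188 otherwise).

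Of 13 tested regulators, RRAGC, a GTPase that recruits mTORC1 to the lysosome, rose to 22.0 ± 3.42 CPM in FTO siRNA cells, against 11.3 ± 1.58 CPM in control siRNA cells (SD, n = 3 each; edgeR adjusted p = 0.0173). TFEC, a relative of TFEB, fell to 0.775 ± 0.0514 CPM in FTO siRNA cells, against 2.55 ± 1.13 CPM in control siRNA cells (edgeR adjusted p = 0.0352). Both lost their calls without control siRNA library 1 or 2 and without FTO siRNA library 1 or 2 (edgeR adjusted p up to 0.106 for RRAGC and 0.142 for TFEC). Without FTO siRNA library 3, 4 of the 13 were called higher and 2 lower, where 15.9% of all genes were called higher and 14.1% lower. With all libraries these shares were 7.53% and 3.83%. TFEB, named after its values were seen, had 59, 20 and 79 counts in the FTO siRNA libraries, against 17, 22 and 30 counts in the control siRNA libraries, which overlapped.

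**Figure D5:**
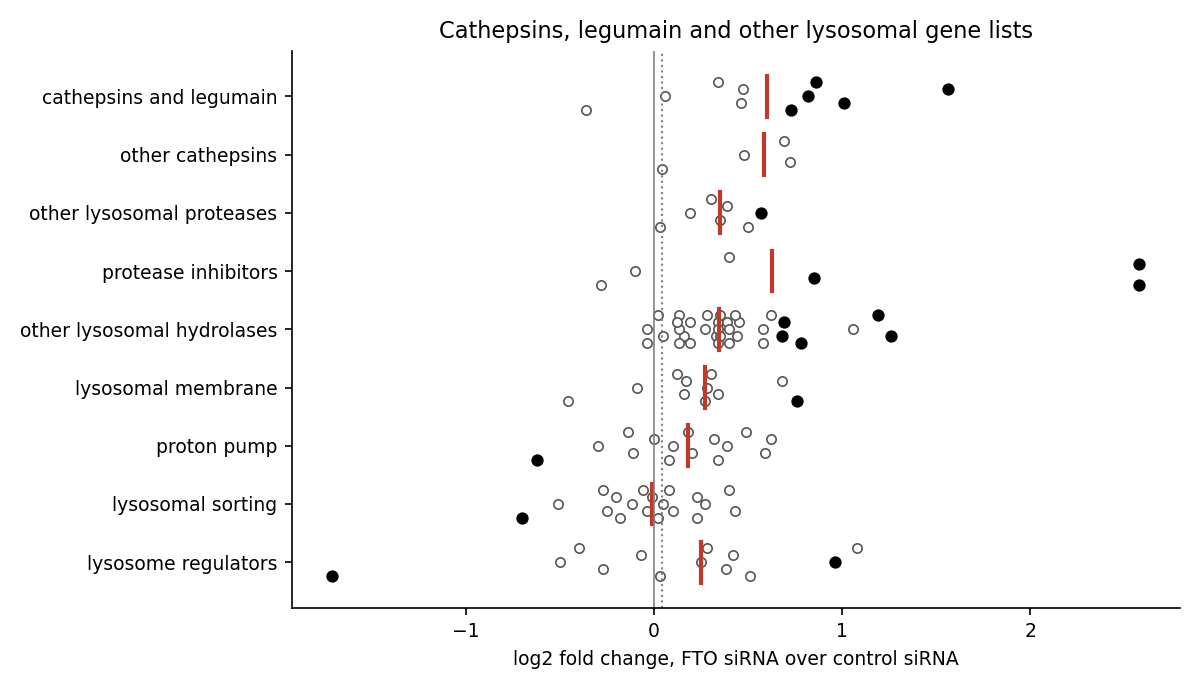
Log2 fold change of FTO siRNA over control siRNA for each tested gene of the cathepsin and lysosomal lists, with filled points for genes past the adjusted threshold of 0.05, a red line for the median of each list and a dotted line for the median of all genes tested. The median is 0.60 for the cathepsins and legumain, 0.34 for the other hydrolases and -0.01 for sorting.

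Markers of liver cells were present in every library. Some markers of the other cells known for CTSS, CTSK, CTSW and CTSG were higher in FTO siRNA libraries, many of them at low counts. More genes of any kind had a count in FTO siRNA libraries (24814, 24927 and 27140) than in control siRNA libraries (23081, 23339 and 22990). The median log2 fold change of all genes was 0.18 without the filter on low counts and 0.04 with it. With the filter, 7.53% of all genes were called higher. The 10 hepatocyte markers summed to between 15890 and 28290 CPM in FTO siRNA libraries and between 23230 and 33420 CPM in control siRNA libraries. All 10 had a negative log2 fold change, with a median of -0.35, where 53.5% of all genes had a positive one. TF, TTR and SERPINA1, named after their values were seen, were nearly level at -0.00, -0.01 and -0.05. Of the 10, 2 were lower without overlap, where 17.4% of all genes tested were. edgeR called 0 of them, DESeq2 and limma-voom each called 1 lower, and 1 had an unadjusted p under 0.05 in edgeR. Without FTO siRNA library 3, edgeR called 6 of the 10 lower, where 14.1% of all genes were called lower. APOB, the structural protein of very low density lipoprotein, had 1405, 2381 and 4062 CPM in the FTO siRNA libraries, against 8180, 7419 and 5071 CPM in the control siRNA libraries, without overlap (log2 fold change -1.40 ± 0.41, SE; edgeR adjusted p = 0.065). AFP, alpha-fetoprotein, had 151936, 115999 and 215234 counts in the FTO siRNA libraries, against 201932, 213323 and 158985 counts in the control siRNA libraries, which overlapped.

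Of the 15 myeloid markers 5 could be tested and edgeR called 2 higher. The summed level of the 15 was between 67.3 and 92.2 CPM in FTO siRNA libraries and between 49.6 and 99.7 CPM in control siRNA libraries. Most of that sum was LYZ, the lysozyme gene, at 83.5, 59.8 and 71.8 CPM in FTO siRNA libraries, against 74.45, 97.3 and 46.7 CPM in control siRNA libraries. The other 14, summed after LYZ was seen to dominate, were between 7.47 and 10.5 CPM in FTO siRNA libraries and between 1.65 and 2.90 CPM in control siRNA libraries, without overlap. The macrophage genes CD163, C1QA and C1QC were at 0 counts in all 6 libraries. TYROBP, an adaptor of myeloid and natural killer cells, had 32, 29 and 25 counts in the FTO siRNA libraries, against 0 in each control siRNA library, at least 9.08-fold higher when each control library is set to its floor of 3 counts. ITGAM had 25, 19 and 60 counts in the FTO siRNA libraries, against 5, 12 and 5 counts in the control siRNA libraries, and was called in 2 of the 6 fits that left out a library, those without FTO siRNA library 2 or 3 (edgeR adjusted p up to 0.162). TYROBP and ITGAM passed the filter on low counts through the FTO siRNA libraries, so nothing is read from the 2 of 5.

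The 8 lymphocyte markers summed to between 7.51 and 9.61 CPM in FTO siRNA libraries and between 0.731 and 1.57 CPM in control siRNA libraries. Of the 5 tested, edgeR called 4 higher. Those 4, PTPRC, CD3D, NKG7 and CD2, had few control siRNA counts and passed the filter on low counts through the FTO siRNA libraries. A gene as low in both groups would not have been tested, so nothing is read from the 4 of 5. PTPRC had 20, 20 and 20 counts in the FTO siRNA libraries, against 0, 1 and 1 in the control siRNA libraries, and CD3D had 68, 33 and 57 counts in FTO siRNA libraries, against 5, 4 and 6 in control siRNA libraries. NKG7 had 25, 17 and 18 counts in FTO siRNA libraries, against 2, 0 and 0 in control siRNA libraries, and CD2, called in 3 of the 6 fits that left out a library (edgeR adjusted p up to 0.106), had 12, 16 and 15 counts in FTO siRNA libraries, against 0, 0 and 3 in control siRNA libraries. CTSW, a cathepsin of cytotoxic lymphocytes too low to test, had 5, 8 and 10 counts in the FTO siRNA libraries, against 0, 0 and 1 in the control siRNA libraries. CTSG, the granule protease of neutrophils, had 2 counts over the FTO siRNA libraries and 0 over the control siRNA libraries.

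The 5 osteoclast markers summed to between 7.44 and 8.74 CPM in FTO siRNA libraries and between 3.105 and 3.66 CPM in control siRNA libraries. DCSTAMP was at 0 counts in all 6 libraries and OCSTAMP at 0 in the control siRNA libraries. ATP6V0D2 had 20, 27 and 18 counts in the FTO siRNA libraries, against 2, 2 and 0 in the control siRNA libraries, and with ACP5 it made 2 called higher of 3 tested. ATP6V0D2 passed the filter on low counts only through the FTO siRNA libraries, so nothing is read from the 2 of 3.

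The 10 fibroblast markers summed to between 277 and 613 CPM in FTO siRNA libraries and between 117 and 203 CPM in control siRNA libraries. Without TAGLN, the highest of them, the other 9 summed to between 141.5 and 187 CPM in FTO siRNA libraries and between 79.7 and 111.5 CPM in control siRNA libraries. Among the 10 were DCN, THY1 and FAP, at 0 counts in the control siRNA libraries and at 8, 6 and 5 counts over the FTO siRNA libraries. All 3 overlapped between the groups. COL1A1, COL1A2 and TAGLN rose among 7 tested, and COL1A1 had 42.25 ± 3.28 CPM in FTO siRNA cells and 14.9 ± 7.115 CPM in control siRNA cells (SD, n = 3 each; edgeR adjusted p = 0.0168, and up to 0.0922 without control siRNA library 1 or 2). COL1A2 lost its call without any 1 control siRNA library and TAGLN, whose groups overlapped, in every fit but the one without FTO siRNA library 3 (edgeR adjusted p up to 0.0905 and 0.151). The 4 tested but not called, COL3A1, LUM, PDGFRA and PDGFRB, are named after their values were seen. Their log2 fold changes were -0.09, 0.15, 0.49 and 0.76, and their groups overlapped. Of 9 genes of class II processing, where CTSS acts, 3 could be tested and edgeR called 1 higher. It was CD74, the invariant chain, at 12.1 ± 4.09 CPM in FTO siRNA cells, against 2.91 ± 0.155 CPM in control siRNA cells (log2 fold change 2.05 ± 0.28, edgeR adjusted p = 0.00471). HLA-DMA and CIITA were tested but not called, with log2 fold changes of 1.07 and 0.40 (edgeR adjusted p = 0.172 and 0.547). The 6 not tested included HLA-DRA, with 32 counts over the FTO siRNA libraries and 14 over the control siRNA libraries, and IFI30, with 4 and 7. All but CD74 are named after their values were seen. What part these markers have in the levels of CTSS, CTSL and the other 8 genes was not tested.

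For each of the 10 genes the gene with the most similar log2 CPM over the 6 libraries was sought among 8179 protein-coding genes. CTSS ran closest to SOD2, the mitochondrial superoxide dismutase (Pearson r = 0.995), CTSD to HMOX1, heme oxygenase (r = 0.994), and CTSA to ATP6V0B, a proton pump subunit (r = 0.998). SOD2 had 945, 795 and 1060 CPM in the FTO siRNA libraries, against 406, 540 and 353 CPM in the control siRNA libraries, the same order of libraries as CTSS. For the rest the closest were ELK3 for CTSB, CCDC34 for CTSC, GPRC5C for CTSH, ZBTB46 for CTSK, FLYWCH2 for CTSL, CFAP36 for CTSZ and DTX3 for LGMN, with r between 0.979 and 0.999. These values describe 6 libraries that fall into 2 groups and are the highest of many, so they carry no p.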

How the data were processed

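RNA-seq was done on 6 HepG2 libraries, 3 of FTO siRNA and 3 of control siRNA cells. The deposited values are raw read counts per Ensembl gene for each library; TopHat2 2.0.11, HTSeq and the builds hg19 and GRCh37 are named in the submitters' processing notes, without roles. Whether counting used strand is not given in the sources used here. Symbols came from GENCODE 29. Genes were tested with edgeR 4.0.16 in R 4.3.3 (filterByExpr, TMM scaling, quasi-likelihood test, two-sided, Benjamini-Hochberg threshold 0.05, no fold minimum). The same fit was also run on simulated data. CPM are TMM-scaled. The 10 genes, the gene lists and the tests were chosen with earlier results of these data known. Named genes are FTO, the 10 genes, up to 4 called genes with the smallest p per list (where none was called, the 2 with the highest mean), and the closest gene by correlation; others are marked. Alternatives were other scalings, filters, DESeq2 1.42.0, limma-voom 3.58.1, a fold minimum of 1.2, a replicate block and leaving out each library. No 2 libraries agreed within sampling noise. SD are between libraries, SE come from the fit and include its estimate of spread between libraries, and floors cover counting error only. Promoter windows are RefSeq's (GRCh38.p14), matched by symbol; CTSB, CTSK, CTSS and LGMN were not matched.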

Additional observations from a re-analysis of the deposited data

How the results depend on the processing

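The count of the 10 genes called higher was 5 in 9 other settings of scaling, filter and test and 4 with the replicate block, which lost CTSB, and it ran from 0 to 8 when 1 library was left out. The lower count was 0 in every setting run. Over the other lysosomal genes, inhibitors and regulators, 11 were called higher, against 16 with DESeq2 and 14 with upper quartile scaling. The higher count was 7 with a fold minimum of 1.2, 5 with the replicate block and 2 to 40 with 1 library left out. The lower count of 3 became 5 with DESeq2, 0 with a fold minimum, 0 with the replicate block and 0 to 8 with 1 library left out. CTSK changed sign to -0.12 without FTO siRNA library 1 and -0.02 without control siRNA library 3. Of all genes tested, 5.29% were called without the filter, 7.47% with the fold minimum, 6.93% with the block and 2.11 to 30% with 1 library left out, and the cause was not tested. Library numbers did not pair the samples: correlations of same-numbered libraries' deviations were -0.138, -0.0643 and -0.248. FTO stayed called, from -2.29 to -1.63 on the log2 scale. With union exon length, 5 of the 10 genes changed rank. Reading only the last 150 bases, 4.37% of promoters held CACGTG. The median of all genes ran from -0.00 to 0.18, highest without the filter. Depth limits CTSK, at 45 to 70 counts a library, and left CTSW and CTSG untested.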

Other observations

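Other lysosomal genes with a promoter window were split by CACGTG, with inhibitors and regulators left out. The 21 that hold CACGTG had a median log2 fold change of 0.34, 19 of them positive, with 3 called higher and 0 lower. The 46 without it had a median of 0.22, 35 of them positive, with 4 called higher and 1 lower. Over all tested genes with a window, the median was 0.02 for the 1353 with the word and 0.04 for the 9568 without it. These are descriptions, and the difference was not tested.

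Short exact runs of sequence were sought in the transcripts of genes elsewhere in the genome. Shared runs made up 4.36% of those in the longest LGMN transcript, 2.67% of CTSB, 0.752% of CTSL, 0.419% of CTSS and 0.346% of CTSC. They made up 0% of CTSA, CTSD, CTSH, CTSK and CTSZ. Genes that overlap the same locus were left out, and CTSA (with PLTP), CTSB, CTSD and CTSK have such genes. The shares do not cover reads shared with those.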
